A study of Mus musculus with 12 samples.

Results

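The cytosolic ribosomal protein genes were followed in mouse bone marrow-derived macrophages, as the rows annotated protein coding whose names begin with Rpl, Rps, Rplp or Rpsa, leaving out the Rps6k kinases. The rule found 90 of the 32246 genes in the deposited table. By name they comprised 43 genes of the large (60S) subunit, 31 of the small (40S) subunit, 3 of the ribosomal stalk, 12 paralogs or intronless copies, and Rps19bp1, which encodes a protein that binds Rps19 and is no part of the ribosome. The first 3 sets, 77 genes, are called constituents below.

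Bone marrow cells had grown in GM-CSF (50 ng/mL) over 7 days to become macrophages, in all groups. Total RNA came from 3 groups of 4 libraries after 24 h of treatment. The first group received plasminogen (PLG) treated with both EACA and RNases (PLG+EACA+RNase), the second PLG treated with EACA alone (PLG+EACA), and the third was untreated. EACA is a lysine analog that binds plasminogen. No group received PLG without EACA or EACA without PLG, so effects of PLG and of EACA cannot be told apart against untreated cells. RNases were not given without PLG in any group either. Whether separate animals or cultures gave the 4 libraries is not in the labels. A p-value here therefore describes the spread of the samples at hand, which may be technical.

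Ribosomal proteins are made in nearly equal amounts and join ribosomal RNA in the nucleolus, and their mRNAs are among the most abundant of a growing cell. Most of these mRNAs start with a C followed by an unbroken stretch of pyrimidines, the terminal oligopyrimidine (TOP) motif, through which mTOR and Larp1 set how well they are translated. Control of the family is therefore largely at translation, which an RNA level does not show. In macrophages, translation is one of the steps that change on activation.

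The start sites of members on which the results below turn are shown first, since the TOP motif lies there. Each window runs from 20 bases before the RefSeq start to the first 20 transcribed bases, on the gene's own strand, in GRCm38.p6. Capitals mark the unbroken run of C and T that holds the start. The first 4 have such a run, and the last 6 are genes that differed from most of the family or moved most, with a run under 5 bases or none. The choice ties no run to a change. Of the first 4, Rpl7a, Rpl35 and Rpl38 were also called in a comparison on the deposited scale. Rps27rt, which fell most in PLG+EACA on that scale, has a run of 6 bases and is not printed.
Rpl7a, chr2:26910787-26910826, plus strand: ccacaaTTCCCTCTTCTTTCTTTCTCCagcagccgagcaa
Rpl35, chr2:39005112-39005151, minus strand: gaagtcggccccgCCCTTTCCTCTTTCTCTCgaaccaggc
Rpl38, chr11:114668560-114668599, plus strand: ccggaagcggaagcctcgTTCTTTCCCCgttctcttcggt
Rps27, chr3:90213629-90213668, minus strand: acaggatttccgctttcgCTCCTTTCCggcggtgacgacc
Rps19bp1, chr15:80264287-80264326, minus strand: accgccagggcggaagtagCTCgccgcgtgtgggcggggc
Rpl7l1, chr17:46782637-46782676, minus strand: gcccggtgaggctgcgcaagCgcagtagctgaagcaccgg
Rpl22l1, chr3:28805488-28805527, plus strand: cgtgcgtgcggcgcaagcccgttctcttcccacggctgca
Rps27l, chr9:66946066-66946105, plus strand: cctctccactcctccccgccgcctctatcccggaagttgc
Rpl41, chr10:128549149-128549188, minus strand: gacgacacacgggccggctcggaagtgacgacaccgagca
Rpsa, chr9:120127746-120127785, plus strand: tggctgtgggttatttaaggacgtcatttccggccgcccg

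The longest run, 21 bases, was at Rpl7a. Of the 65 members with a RefSeq promoter entry, 21 (32.3%) had a run of at least 5 bases holding the start, against 11.8% of 27025 genes. Over 300-base windows around the start, on both strands, the letters CTTTCC were found in 53.8% of members and 29.3% of all genes, CCGGAA (the core bound by ETS factors) in 55.4% and 16.7%, AAGATGG (bound by YY1) in 15.4% and 7.28%, and TATAAA in 10.8% and 15.7%. These are matches of letters, and an annotated start a few bases off breaks a run. The median of mean FPKM (defined below) was 67.0 for the 21 members with a run and 86.6 for the 44 with a shorter run or none. In PLG+EACA against untreated cells the median log2 fold changes of the same classes were -0.09 and -0.11 on the deposited scale, and 0.20 and 0.18 under the median-of-ratios scaling described below. The difference between the classes was not tested.

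Levels were read as FPKM, fragments scaled to gene length and library depth. The gene length used can far exceed the coding transcript, at 6270 against 640 bases for Rps15a, or equal it, at 499 bases for Rplp1. A longer gene length lowers FPKM, so ranks, medians and sums over genes below hold only for this measure. Comparisons of 1 gene between groups share the same length. The libraries held 12940887 to 22677046 counted reads. The labelled cell type was checked by its markers: the summed FPKM of 9 macrophage markers was 4080 to 4640 in PLG+EACA+RNase, 4160 to 6090 in PLG+EACA and 5330 to 5930 in untreated libraries. That of 8 lymphocyte markers was 0.429 to 1.09 over all libraries, with Cd3e, Cd3g, Ms4a1 and Nkg7 under 0.1 FPKM in each group. In the order PLG+EACA+RNase, PLG+EACA and untreated, 8 dendritic cell markers summed to 531 to 584, 435 to 571 and 602 to 653 FPKM. In that order 8 neutrophil markers summed to 24.7 to 60.3, 26.1 to 70.3 and 14.1 to 58.1 FPKM, and 8 markers of stroma and endothelium to 6.18 to 15.0, 7.83 to 22.9 and 9.67 to 18.6 FPKM. No marker was at 0 in all 12 libraries. Such sums follow their highest genes and hide opposed moves. By the limma test described below, 3 of 9 macrophage markers rose and 4 fell in PLG+EACA against untreated cells, on the deposited scale. Of 5 dendritic cell markers tested, 1 rose and 2 fell there. Of all tested genes 14.9% rose and 53.4% fell in that comparison. A noncoding row over an rRNA gene copy, Gm26917, took 13.3% to 15.2% of reads in PLG+EACA+RNase, 10.98% to 14.3% in PLG+EACA and 10.3% to 11.9% in untreated libraries. It moves with the groups, and counts of calls without it are given below.

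The family took a like share of the reads in all groups. In PLG+EACA+RNase libraries the members together held 1.965%, 1.786%, 1.793% and 1.727% of counted reads. In PLG+EACA libraries they held 1.632%, 1.862%, 1.734% and 1.682%, and in untreated libraries 1.846%, 1.829%, 1.834% and 1.805%. The means were 1.818% ± 0.102, 1.727% ± 0.0988 and 1.828% ± 0.0171 in the same order (SD, n = 4 each), and every pair of groups overlapped. In bulk RNA, fewer cells of one kind and less RNA per cell cannot be told apart in such a share.

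One library of each treated group lay above the others across the family. PLG+EACA+RNase replicate 1 gave the highest value of its group for 68 of the 83 members tested, and PLG+EACA replicate 2 for 66 of 83. In untreated cells the highest value fell in replicate 1 for 36 members and in replicate 4 for 20. The median coefficient of variation of a member was 7.48% in PLG+EACA+RNase, 6.92% in PLG+EACA and 3.09% in untreated libraries, against 9.89%, 10.5% and 5.84% over all tested genes in the same order. The untreated libraries were therefore the tightest in the family as in the whole table. PLG+EACA+RNase replicate 1 and PLG+EACA replicate 2 were also the deepest of their groups, with 20389811 and 22677046 reads, and the part of depth was not tested.

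**Figure D1:**
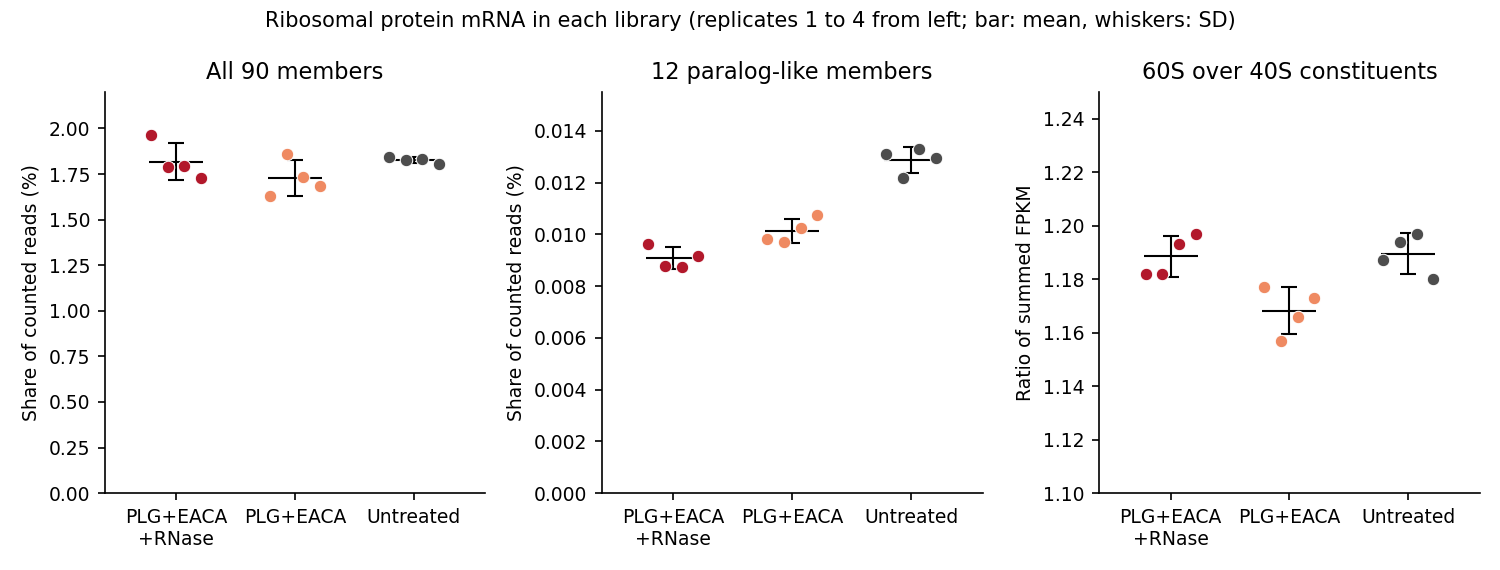
Share of counted reads in percent for all 90 members and for the 12 paralog-like members, and the ratio of the summed FPKM of 60S to 40S constituents, in each of the 4 libraries per group; bars are means and whiskers SD, and the ratio axis does not start at 0. The 3 groups overlap for the whole family, while the paralog-like share does not overlap between any groups. Of all tested genes, 50.9% in PLG+EACA and 46.7% in PLG+EACA+RNase were lower than in untreated cells without overlap.

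The balance of the subunits, which no scaling of a library alters, differed by group in a way that depends on how it is summed. The summed FPKM of 60S over 40S constituents was 1.182, 1.182, 1.193 and 1.197 in PLG+EACA+RNase libraries, 1.177, 1.157, 1.166 and 1.173 in PLG+EACA libraries, and 1.187, 1.194, 1.197 and 1.18 in untreated libraries. The PLG+EACA libraries did not overlap with either other group, and the PLG+EACA+RNase and untreated libraries overlapped. Such a sum follows its highest genes. Rpl41, the highest 60S gene at a mean of 544.2 FPKM, was higher in every PLG+EACA+RNase library than in all others. The ratio without Rpl41 was not taken, so its separation of the groups may rest largely on that gene. By summed reads in place of FPKM, where long genes weigh more, the ratio was 1.112, 1.095, 1.113 and 1.108 in PLG+EACA+RNase, 1.106, 1.086, 1.098 and 1.11 in PLG+EACA, and 1.131, 1.13, 1.134 and 1.114 in untreated libraries. There the treated groups overlapped with each other and lay below all untreated libraries. No test was made of either ratio.

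In PLG+EACA cells the genes of the ribosome changed little against untreated cells on the deposited scale. The falls that held under every alternative were those of a paralog, Rpl7l1, and of Rps19bp1. The share of all genes with falls that held so is not given. Of 83 members tested by limma, 1 rose and 22 fell (26.5%) on the deposited scale at a Benjamini-Hochberg adjusted p under 0.05, against 14.9% and 53.4% of the 11165 genes tested. Both shares lay below those of all genes. The members that fell were 12 of 42 in the 60S set, 5 of 31 in the 40S set, Rplp1 of the stalk, 3 of 6 paralog-like genes and Rps19bp1. The fold changes on the deposited scale were small: the constituents ran from -0.30 to 0.20 in log2 units. After median-of-ratios scaling the constituents ran from -0.03 to 0.49.

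The direction of the family depends on the scaling. The median of all tested genes was -0.26 on the deposited scale and 0.00 when the libraries were scaled by the median of ratios, while the median member was -0.09 and 0.20. The members therefore lay above the median gene by 0.16 and 0.20, and 73 of 83 lay above it under both scalings. Under median-of-ratios scaling 42 members rose (50.6%) and 2 fell (2.41%), against 27.8% and 25.2% of all genes. Of the 22 members that fell on the deposited scale, 15 turned positive and Rpl4, Rpl6 and Rpl7a were then called higher. Leaving out PLG+EACA replicate 1 or untreated replicate 1, 2 or 3 gave 9, 10, 14 and 12 members that fell in place of 22, and 8 of the 22 held in every fit that left out 1 library. Shares of all genes called in fits that left out 1 library are not given, here or below. Such counts show how firm the calls were, and nothing particular to the members. The single rise was lost without PLG+EACA replicate 2 or untreated replicate 3, and it became 2 without PLG+EACA+RNase replicate 2 or 3, PLG+EACA replicate 1 or 4, or untreated replicate 4.

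In PLG+EACA+RNase cells Rpl7l1 and Rps19bp1 again fell against untreated cells, and Rpl41 rose. On the deposited scale 4 members rose (4.82%) and 10 fell, against 16.0% and 48.4% of all genes. Those that rose were Rpl35 and Rpl41 of the 60S set and Rps14 and Rps20 of the 40S set, and those that fell were 3 of the 60S set, 3 of the 40S set, 3 paralog-like genes and Rps19bp1. The median member was -0.04 and the median gene -0.20, and 72 of 83 members lay above that median. Under median-of-ratios scaling the medians were 0.15 and -0.04, so the direction of the family turned here too. Without Gm26917 the median member was 0.01. It was also 0.01 under family-median scaling, which sets the family's median equal in all libraries and so cannot show its direction. With the median of ratios 33 members rose (39.8%) and 2 fell (2.41%), against 25.0% and 30.2% of all genes. Leaving out PLG+EACA+RNase replicate 1 raised the falls to 23, and leaving out PLG+EACA+RNase replicate 2, 3 or 4, PLG+EACA replicate 3, or untreated replicate 1, 2 or 3 brought them to 6, 6, 6, 6, 5, 6 and 5. The 4 rises became 2 without PLG+EACA+RNase replicate 1, 2 or 4, PLG+EACA replicate 1 or 3, or untreated replicate 2, and 1 without untreated replicate 1 or 3. Of the calls, Rpl41, Rpl7l1, Rpl21, Rpl22, Rps27l and Rps19bp1 held in every fit that left out 1 library. Both comparisons share the untreated libraries.

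PLG+EACA+RNase and PLG+EACA cells were set apart by the RNases, and few members differed. Exposure of the plasminogen to RNases and any RNases carried into the culture cannot be told apart here. On the deposited scale Rpl38, Rpl41, Rps2 and Rpsa rose (4.82%) and Rpl7l1 fell, against 12.1% and 8.73% of all genes. The median member was 0.04 and the median gene 0.04, and 47 of 83 members lay above it. Under median-of-ratios scaling no member rose by limma (1 had an unadjusted p under 0.05), against 7.77% of all genes, and Rpl7l1 and Rpl22l1 fell, against 17.3% of all genes. Leaving out PLG+EACA replicate 2 gave 10 members that rose, and leaving out PLG+EACA+RNase replicate 1, 2 or 3, PLG+EACA replicate 1 or 4, or any untreated replicate gave 0 to 2. The fall of Rpl7l1 is taken up below. None of the 5 calls held in every fit that left out 1 library, and all 5 were lost with only the 2 groups compared. The main fit shares its estimate of spread with the untreated libraries, which were the tightest. The share of all genes called with only the 2 groups is not given.

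**Figure D2:**
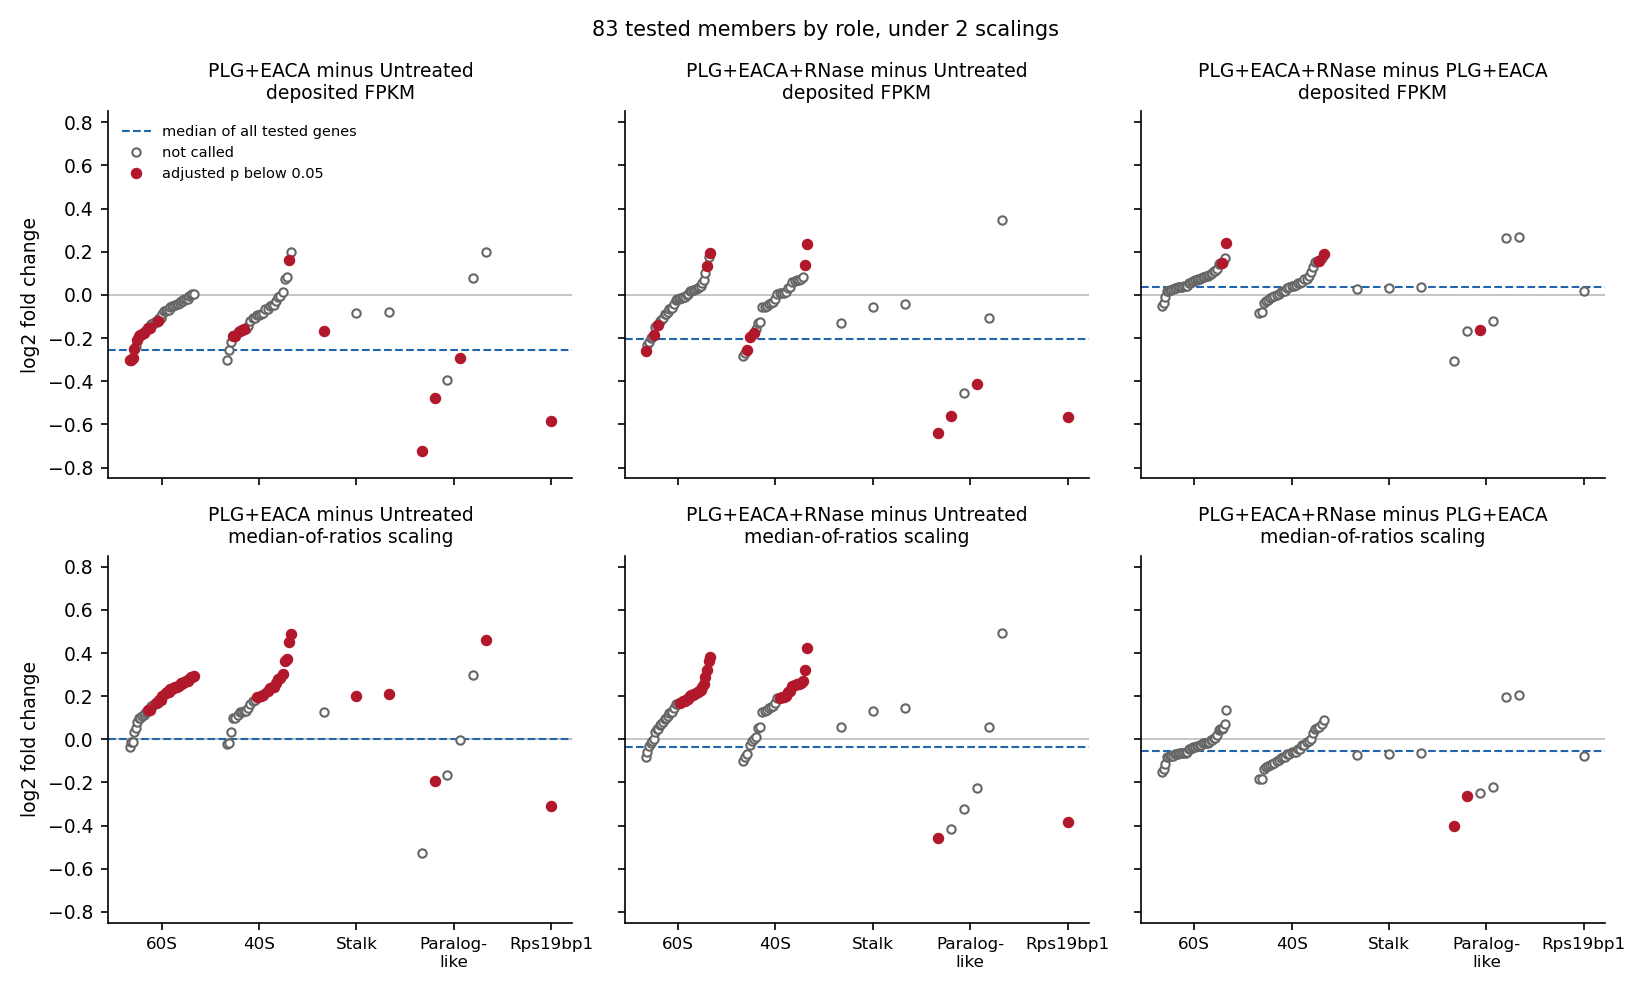
log2 fold change of the 83 tested members by role in the 3 comparisons, with deposited FPKM above and median-of-ratios scaling below; filled points passed an adjusted p of 0.05 in limma and the dashed line is the median of all tested genes. Most constituents lie above the dashed line in both comparisons with untreated cells under both scalings, although they lie mostly below 0 on the deposited scale and above 0 after scaling.

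The other scalings were tried, by the median of the family, by TPM and without Gm26917. Family-median scaling sets the median of the members equal in all libraries, so its calls concern members that differ from the family. In PLG+EACA against untreated cells, family-median scaling gave 3 members that rose and 10 that fell, against 13.5% and 45.8% of all genes, TPM 1 and 23, against 14.6% and 53.4%, and the fit without Gm26917 1 and 11, against 15.4% and 50.9%. In PLG+EACA+RNase against untreated cells, family-median scaling gave 6 and 4, against 15.7% and 37.7%, TPM 2 and 15, against 15.1% and 49.9%, and the fit without Gm26917 5 and 5, against 17.5% and 43.0%. In PLG+EACA+RNase against PLG+EACA, family-median scaling gave 4 and 0 (1 lower at an unadjusted p under 0.05 in limma), against 8.90% and 2.82%, TPM 2 and 1, against 9.37% and 9.79%, and the fit without Gm26917 5 and 0 (2 lower unadjusted), against 13.8% and 7.62%. Rpl7l1 and Rps19bp1 fell against untreated cells in both treatments under all 5 scalings. The share of all genes that did so is not given, and under median-of-ratios scaling alone 25.2% and 30.2% of all genes fell. Falls that held therefore show how firm these 2 calls were, and nothing particular to the 2 genes.

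Counted by libraries that do not overlap, 1 member was higher and 16 were lower in PLG+EACA than in untreated cells, against 13.8% and 50.9% of all tested genes. In PLG+EACA+RNase against untreated cells it was 2 and 6 members, against 15.0% and 46.7%. In PLG+EACA+RNase against PLG+EACA cells it was 2 and 1, against 10.4% and 7.68%.

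The 60S constituents were abundant, with a median of mean FPKM of 90.8 over 43 genes. Rpl41, which encodes the smallest ribosomal protein (chr10:128548114-128549305, minus strand), was the highest of them at 544.2. It had 569.3, 624.5, 602.2 and 603.1 FPKM in PLG+EACA+RNase, 500.8, 560.4, 517.0 and 458.6 in PLG+EACA, and 500.8, 526.7, 525.9 and 540.8 in untreated libraries. All 4 PLG+EACA+RNase libraries lay above all others. It rose by 0.20 against untreated cells (SE 0.0576, limma adjusted p = 0.0102), a 1.15-fold change that passed under every alternative tried. It rose by 0.24 against PLG+EACA cells (limma adjusted p = 0.0167), but under median-of-ratios scaling by 0.14 (adjusted p = 0.0937), and the call was also lost without PLG+EACA+RNase replicate 2, without a filter, and with only the 2 groups. PLG+EACA against untreated cells gave -0.04 (adjusted p = 0.523) on the deposited scale and 0.25 (adjusted p = 0.00284) after scaling.

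Other 60S members moved little on the deposited scale. Rpl22, an RNA-binding 60S protein (chr4:152325742-152334071, plus strand), had 13.01, 11.33, 12.45 and 11.31 FPKM in PLG+EACA+RNase, 11.57, 11.86, 12.001 and 11.57 in PLG+EACA, and 16.17, 14.81, 13.28 and 13.87 in untreated libraries. Each treated group lay wholly below the untreated libraries. It fell by 0.26 in PLG+EACA+RNase (limma adjusted p = 0.00341) and by 0.29 in PLG+EACA (adjusted p = 0.00156), calls that ended under median-of-ratios scaling, at -0.08 and -0.01. Rpl21 fell by 0.18 and 0.25 in the same comparisons (limma adjusted p = 0.0121 and 0.00174), calls that likewise ended after scaling, at 0.00 and 0.03, the first also under family-median scaling. Both were chosen after their values were seen.

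Rpl35 and Rpl38, 60S genes each with a pyrimidine run at the start as printed above, were also chosen after their values were seen. The reads of Rpl35 may include those of Arpc5l, which it overlaps, and it shares 95.1% of its 50-base stretches with other genes. Rpl35 averaged 141.4 ± 8.01 FPKM in PLG+EACA+RNase, 127.1 ± 8.10 in PLG+EACA and 128.5 ± 2.94 in untreated cells (SD, n = 4 each). It rose by 0.14 against untreated cells (limma adjusted p = 0.0418), with groups that overlapped. That call was kept in 4 of 12 fits that left out 1 library, those without PLG+EACA+RNase replicate 3, PLG+EACA replicate 2 or 4, or untreated replicate 4. Rpl38 averaged 141.0 ± 6.14 in PLG+EACA+RNase, 127.2 ± 7.70 in PLG+EACA and 136.8 ± 2.78 FPKM in untreated cells. It rose by 0.15 against PLG+EACA cells (limma adjusted p = 0.0467), a call kept in 2 of 12 such fits, without PLG+EACA+RNase replicate 4 or PLG+EACA replicate 2, and lost under median-of-ratios scaling. Rpl23a, a 60S protein near the exit of the nascent chain, had 68.4, 57.7, 55.1 and 67.9 FPKM in PLG+EACA+RNase, 52.2, 57.7, 55.5 and 54.4 in PLG+EACA, and 56.9, 57.7, 56.8 and 48.4 in untreated libraries. Its difference of 0.18 between PLG+EACA+RNase and untreated cells missed the threshold on the deposited scale (limma adjusted p = 0.0691). It was called higher under median-of-ratios scaling (0.36, adjusted p = 0.00505), under family-median scaling (0.22, adjusted p = 0.0432) and without Gm26917 (0.22, adjusted p = 0.0285).

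The 40S constituents had a median of mean FPKM of 127.5 over 31 genes, and Rps14 and Rps20 were those called higher against untreated cells on the deposited scale. Rps20 (chr4:3831334-3835665, minus strand), which lies in the head of the small subunit, had 37.2, 34.9, 32.1 and 35.6 FPKM in PLG+EACA+RNase, 33.9, 39.2, 33.9 and 35.4 in PLG+EACA, and 31.6, 31.8, 30.7 and 32.6 in untreated libraries. The PLG+EACA libraries lay above all untreated ones, and 1 of the PLG+EACA+RNase libraries did not. It rose by 0.16 in PLG+EACA (SE 0.0567, limma adjusted p = 0.0218, 1.12-fold), the only member called higher there on the deposited scale, and by 0.14 in PLG+EACA+RNase (adjusted p = 0.0490). The first call ended without PLG+EACA replicate 2 or untreated replicate 3, and the second was kept in 2 of 12 fits that left out 1 library, without PLG+EACA+RNase replicate 3 or PLG+EACA replicate 2, and was lost under TPM scaling or with no filter. Under median-of-ratios scaling the values were 0.45 and 0.32.

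Rps14 encodes a 40S protein, and its reads may include those of Ndst1, which it overlaps. It had 168.6, 190.0, 153.0 and 159.7 FPKM in PLG+EACA+RNase, 158.7, 186.2, 164.4 and 143.4 in PLG+EACA, and 139.0, 143.3, 134.2 and 150.9 in untreated libraries. The PLG+EACA+RNase libraries lay above all untreated ones, while PLG+EACA replicate 4 fell among them. It rose by 0.24 in PLG+EACA+RNase (SE 0.0825, limma adjusted p = 0.0234), a call that ended without PLG+EACA+RNase replicate 2 or untreated replicate 1 or 3, or with no filter. In PLG+EACA the difference was 0.20 (adjusted p = 0.0508) on the deposited scale, and it was called higher under family-median scaling (0.22, adjusted p = 0.0247). Under median-of-ratios scaling it rose by 0.43 in PLG+EACA+RNase (adjusted p = 0.000683) and by 0.49 in PLG+EACA (adjusted p = 0.000253).

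Rpsa, a 40S protein also known as the laminin receptor (chr9:120127689-120132369, plus strand), was lowest in PLG+EACA cells. It had 276.0, 251.0, 270.1 and 244.9 FPKM in PLG+EACA+RNase, 211.1, 244.3, 238.0 and 220.1 in PLG+EACA, and 259.1, 257.0, 251.1 and 250.7 in untreated libraries. The PLG+EACA libraries lay below all others, and the other groups overlapped. On the deposited scale it fell by 0.16 in PLG+EACA against untreated cells (limma adjusted p = 0.0214), but under median-of-ratios scaling it turned to 0.13 (adjusted p = 0.0948). It rose by 0.19 in PLG+EACA+RNase against PLG+EACA (adjusted p = 0.0309), and by 0.09 (adjusted p = 0.318) after scaling. The gene holds Snora62, a small nucleolar RNA, and how reads there were assigned is not given in the sources used here. The first call ended without PLG+EACA replicate 1 or 4 or untreated replicate 1, and the second without PLG+EACA+RNase replicate 1, 2 or 3 or PLG+EACA replicate 1 or 4.

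By FPKM the most abundant 40S gene was Rps2, at the mRNA entry of the ribosome. It had 418.5, 422.8, 401.7 and 381.5 FPKM in PLG+EACA+RNase, 348.5, 388.7, 374.8 and 344.9 in PLG+EACA, and 381.3, 385.3, 387.7 and 391.3 in untreated libraries. Every pair of groups overlapped. It averaged 406.1 ± 18.8 FPKM in PLG+EACA+RNase, 364.2 ± 21.1 in PLG+EACA and 386.4 ± 4.20 in untreated cells (SD, n = 4 each). Its rise of 0.16 against PLG+EACA (limma adjusted p = 0.0385) was kept in 3 of 12 fits that left out 1 library, without PLG+EACA+RNase replicate 4 or PLG+EACA replicate 2 or 3, and after median-of-ratios scaling it was 0.06 (adjusted p = 0.455). Rps3a1 averaged 340.2 ± 21.2, 330.6 ± 23.5 and 349.5 ± 6.79 FPKM in the same order, with no call on the deposited scale.

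The stalk is the arm of the 60S subunit that recruits elongation factors, built on Rplp0 with pairs of Rplp1 and Rplp2. Rplp1 (chr9:61913284-61914542, minus strand) was the highest member of all, with a mean of 833.3 FPKM. It had 907.5, 771.7, 808.1 and 768.2 FPKM in PLG+EACA+RNase, 730.4, 839.7, 802.7 and 807.4 in PLG+EACA, and 908.9, 918.6, 911.7 and 824.6 in untreated libraries. Every pair of groups overlapped. It fell by 0.17 in PLG+EACA against untreated cells (limma adjusted p = 0.0367) on the deposited scale, and turned to 0.13 (adjusted p = 0.199) under median-of-ratios scaling. That call ended without PLG+EACA replicate 1 or 3 or untreated replicate 1, 2 or 3.

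The other stalk genes were not called on the deposited scale. Rplp0 had 583.1, 476.3, 528.9 and 499.9 FPKM in PLG+EACA+RNase, 461.4, 530.8, 517.2 and 521.6 in PLG+EACA, and 548.4, 529.0, 548.2 and 516.2 in untreated libraries. Its groups overlapped. It averaged 522.1 ± 46.1 FPKM in PLG+EACA+RNase, 507.7 ± 31.4 in PLG+EACA and 535.4 ± 15.7 in untreated cells (SD, n = 4 each). Rplp2 averaged 113.2 ± 7.92, 111.0 ± 6.90 and 117.7 ± 2.91 FPKM in the same order. After median-of-ratios scaling Rplp0 was called higher in PLG+EACA than in untreated cells, at 0.21 (limma adjusted p = 0.0430), against -0.08 on the deposited scale. Rplp2 was called too, at 0.20 (limma adjusted p = 0.0218), against -0.09 on the deposited scale.

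**Figure D3:**
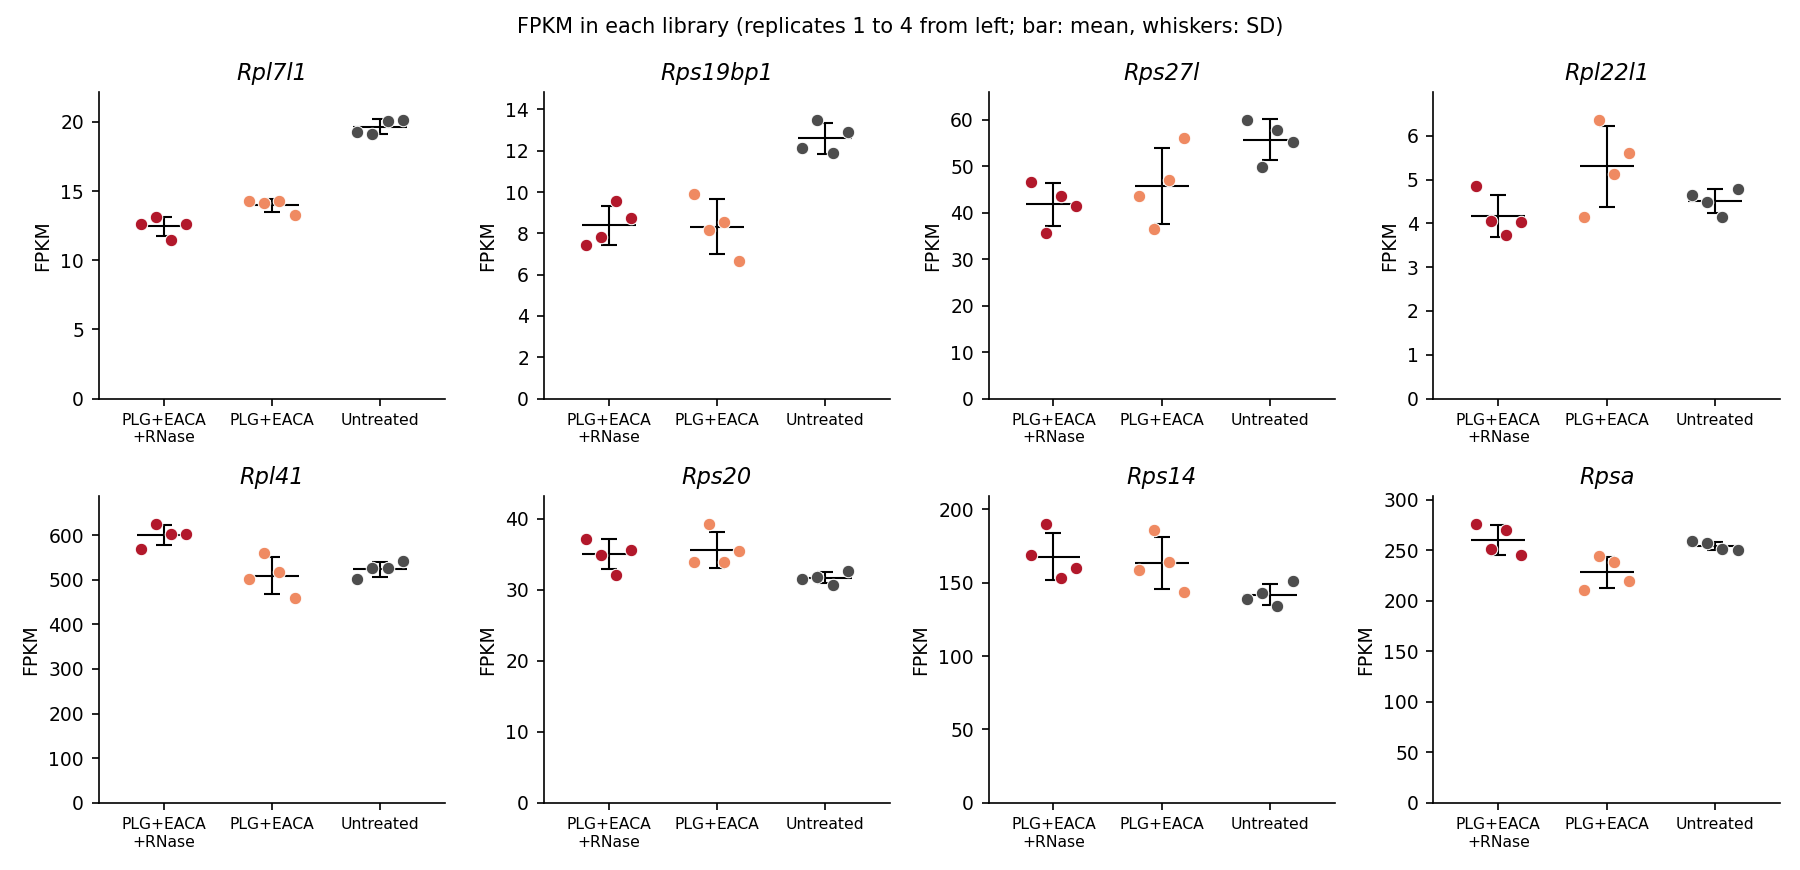
FPKM of 8 members in each of the 4 libraries per group, with axes from 0; bars are means and whiskers SD. For Rpl7l1 and Rps19bp1 both treated groups lie below all untreated libraries, and for Rpl41 the PLG+EACA+RNase libraries lie above all others.

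The paralog-like genes were scarce. Together they took 0.00909% ± 0.000416 of reads in PLG+EACA+RNase, 0.0101% ± 0.000467 in PLG+EACA and 0.0129% ± 0.000493 in untreated libraries (SD, n = 4 each), with no overlap between any 2 groups. Of all tested genes, 50.9% in PLG+EACA and 46.7% in PLG+EACA+RNase were also lower than in untreated cells without overlap. Between the treatments 7.68% were lower in that way. Such a sum follows its highest genes, and Rpl22l1 went the other way in PLG+EACA against untreated cells, at 0.20. Rps27l and Rpl7l1 were the highest of them, at means of 47.8 and 15.4 FPKM, and the other 10 had means under 5. On the deposited scale the median of the 6 tested genes was -0.34 in PLG+EACA and -0.43 in PLG+EACA+RNase against untreated cells, and -0.09 and -0.27 under median-of-ratios scaling.

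Rpl7l1, a paralog of Rpl7 (chr17:46773907-46782672, minus strand), fell in both treatments and gave the smallest adjusted p among the members. It had 12.7, 13.1, 11.4 and 12.6 FPKM in PLG+EACA+RNase, 14.3, 14.1, 14.3 and 13.3 in PLG+EACA, and 19.3, 19.1, 20.1 and 20.2 in untreated libraries. No 2 groups overlapped. It fell by 0.64 in PLG+EACA+RNase (SE 0.0479, limma adjusted p = 6.69e-07, 1.56-fold) and by 0.48 in PLG+EACA (adjusted p = 4.79e-06, 1.39-fold), both against untreated cells. These calls passed under every alternative tried, at -0.46 and -0.20 after median-of-ratios scaling. Between the treatments it fell by 0.16 (limma adjusted p = 0.0328), a call that ended under family-median scaling, without Gm26917, with only the 2 groups, with a replicate block and in 5 of 12 fits that left out 1 library. Those fits left out PLG+EACA+RNase replicate 1 or 3 or PLG+EACA replicate 1, 2 or 3. Its parent Rpl7 averaged 116.1 ± 7.68 FPKM in PLG+EACA+RNase, 113.4 ± 5.21 in PLG+EACA and 117.9 ± 5.54 in untreated cells, with no call on the deposited scale.

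Rps27l is a paralog of Rps27 and, in human cells, a target of p53 (chr9:66946086-66949516, plus strand). It had 46.6, 35.7, 43.6 and 41.5 FPKM in PLG+EACA+RNase, 43.5, 36.5, 47.1 and 56.2 in PLG+EACA, and 59.99, 49.7, 57.9 and 55.2 in untreated libraries. The PLG+EACA+RNase libraries lay below all untreated ones, and PLG+EACA replicate 4 reached into them. It fell by 0.41 in PLG+EACA+RNase (SE 0.119, limma adjusted p = 0.00900), a call that ended only under median-of-ratios scaling (-0.23, adjusted p = 0.181) and family-median scaling among the alternatives. Its fall of 0.29 in PLG+EACA (adjusted p = 0.0446) was kept in 4 of 12 fits that left out 1 library, without PLG+EACA+RNase replicate 1 or 2, PLG+EACA replicate 4 or untreated replicate 2. It also ended under median-of-ratios scaling, where the difference was -0.01 (adjusted p = 0.981), under family-median scaling, with no filter and with only the 2 groups. Rps27 itself averaged 38.3 ± 8.09 FPKM in PLG+EACA+RNase, 37.2 ± 2.14 in PLG+EACA and 46.2 ± 5.30 in untreated cells, with adjusted p of 0.0763 and 0.0584 against untreated cells in limma.

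Rpl22l1, the paralog of Rpl22 whose mRNA is held down by Rpl22 in mouse cells, was highest in 3 of 4 PLG+EACA libraries. It had 4.86, 4.06, 3.73 and 4.03 FPKM in PLG+EACA+RNase, 4.15, 6.36, 5.12 and 5.60 in PLG+EACA, and 4.65, 4.49, 4.15 and 4.79 in untreated libraries. PLG+EACA replicate 1 lay among the low values, and every pair of groups overlapped. No comparison passed on the deposited scale: PLG+EACA against untreated cells gave 0.20 (limma adjusted p = 0.126), and PLG+EACA+RNase against PLG+EACA gave -0.31 (adjusted p = 0.0641). After median-of-ratios scaling it rose by 0.46 in PLG+EACA against untreated cells (adjusted p = 0.00765) and fell by 0.40 between the treatments (adjusted p = 0.0344). Without PLG+EACA replicate 1 both were called on the deposited scale, at 0.30 and -0.41.

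The other paralog-like genes were low. Rps27rt, an intronless copy of Rps27, had 0.918, 0.476, 1.03 and 1.13 FPKM in PLG+EACA+RNase, 0.274, 0.590, 0.748 and 1.07 in PLG+EACA, and 1.72, 1.45, 1.44 and 0.955 in untreated libraries, from 2 to 14 reads. It fell by 0.72 in PLG+EACA (limma adjusted p = 0.0134) and the difference after median-of-ratios scaling was -0.53 (adjusted p = 0.0847). It shares 91.1% of its 50-base stretches with other genes. Rpl39l, a paralog best known from testis, averaged 1.34 ± 0.305 FPKM in PLG+EACA+RNase, 1.58 ± 0.446 in PLG+EACA and 2.31 ± 0.974 in untreated cells. Its fall of 0.56 in PLG+EACA+RNase (limma adjusted p = 0.0492) was kept in 3 of 12 fits that left out 1 library, without PLG+EACA+RNase replicate 4, PLG+EACA replicate 2 or untreated replicate 4, and groups overlapped. It also ended under median-of-ratios scaling (-0.41, adjusted p = 0.150), under family-median scaling, without Gm26917, with no filter and with only the 2 groups. Rps18-ps5 averaged 2.33 ± 0.459, 1.89 ± 0.623 and 1.78 ± 0.718 FPKM in the same order, with no call.

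The other 6 paralog-like genes were not tested: Rpl3l (known from muscle in mouse), Rpl36al, Rpl9-ps1, Rpl9-ps6, Rpl36a-ps1 and Rpl10-ps3. Their means were 0.399, 0.324, 0.322, 0.708, 0.214 and 0.0529 FPKM, from 0 to 19 reads per library. Rpl24 was the only constituent not tested, with 0.571, 0.806, 1.05 and 0.615 FPKM in PLG+EACA+RNase, 1.24, 1.11, 0.978 and 0.665 in PLG+EACA, and 0.447, 0.788, 0.759 and 0.809 in untreated libraries. It encodes a 60S protein that every ribosome holds. Members were tested where 4 or more of the 12 libraries reached 1 FPKM.

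Rps19bp1, also called AROS, binds Rps19 and the deacetylase Sirt1 (chr15:80260615-80264315, minus strand). It had 7.43, 7.83, 9.56 and 8.72 FPKM in PLG+EACA+RNase, 9.89, 8.18, 8.53 and 6.64 in PLG+EACA, and 12.1, 13.5, 11.9 and 12.9 in untreated libraries. Each treated group lay wholly below the untreated libraries, and the treated groups overlapped. It fell by 0.56 in PLG+EACA+RNase (SE 0.106, limma adjusted p = 0.000565, 1.48-fold) and by 0.58 in PLG+EACA (adjusted p = 0.000409, 1.5-fold). Both calls passed under every alternative tried, at -0.39 and -0.31 after median-of-ratios scaling. Rps19 averaged 51.7 ± 4.73 FPKM in PLG+EACA+RNase, 50.4 ± 3.57 in PLG+EACA and 56.3 ± 0.623 in untreated cells.

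Many members share sequence with other genes, which bears on every level above. Which kinds of gene share it was not counted. Over the longest coding transcripts, the median member shared 62.4% of its 50-base stretches with another gene's transcript, 55 members shared at least 50%, and Rpl3l, Rpl39l and Rps19bp1 were among those that shared none. How reads that match several genes were counted is not given in the sources used here. Among constituents, 3 had a mean FPKM under 10: Rpl24 at 0.820, Rps10 at 1.17 and Rpl13a at 6.14, with 81.7%, 64.7% and 57.4% shared. Rps27, at 98.7% shared, had a mean of 40.6 FPKM. The part of shared sequence in these levels was not tested. Rps10 had 1.44, 1.26, 0.869 and 0.913 FPKM in PLG+EACA+RNase, 1.35, 1.45, 0.921 and 0.593 in PLG+EACA, and 1.20, 1.58, 1.54 and 0.927 in untreated libraries, all groups overlapping. The 199 pseudogene rows named after ribosomal proteins took 0.0058% to 0.00734% of reads.

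**Figure D4:**
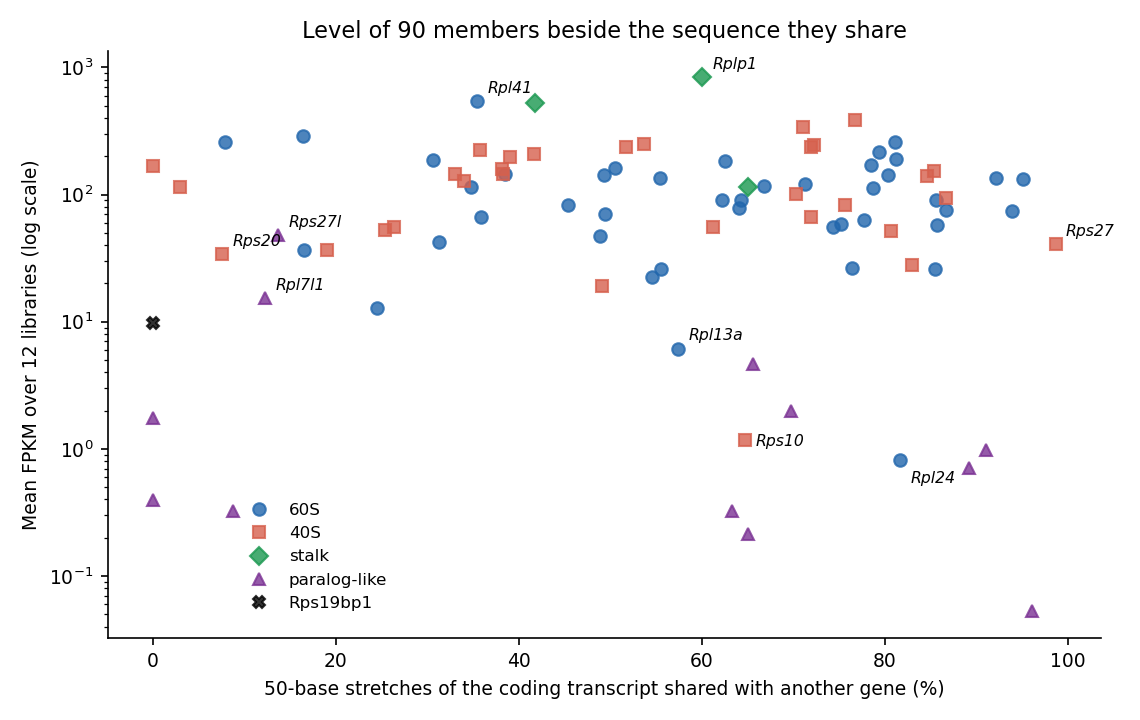
Mean FPKM over the 12 libraries (log axis) of the 90 members against the percentage of 50-base stretches of the coding transcript found in another gene's transcript, with symbols by role. Constituents lie mostly above 10 FPKM over the whole range of shared sequence, with Rpl24, Rps10 and Rpl13a below it.

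The members were also divided by shared sequence, and the difference between the classes was not tested. For PLG+EACA against untreated cells the median log2 fold change was -0.16 for 11 tested members at 20% or less shared, -0.09 for 55 between 20% and 80%, and -0.12 for 17 above 80%. After median-of-ratios scaling these medians were 0.14, 0.20 and 0.17, so the sign turned in each class. In PLG+EACA+RNase against untreated cells the deposited medians were -0.067, -0.034 and -0.019. There 1, 2 and 1 members rose and 4, 6 and 0 fell, against 16.0% and 48.4% of all genes. Between the treatments the deposited medians were -0.016, 0.055 and 0.068. The class at 20% or less holds Rps19bp1, Rpl7l1, Rps27l and Rpl39l. Overlap is a second limit: 26 members overlap another expressed gene, 12 of them a gene other than a small RNA, and whether counting used the strand is not given in the sources used here.

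Fau and Rack1, cytosolic ribosome genes outside the name rule, were not called. Fau, a ubiquitin-like fusion with a 40S protein, averaged 263.0 ± 17.3 FPKM in PLG+EACA+RNase, 251.7 ± 22.2 in PLG+EACA and 276.7 ± 11.5 in untreated cells (SD, n = 4 each). Rack1, a scaffold on the 40S head, averaged 75.8 ± 6.83, 73.9 ± 5.49 and 79.9 ± 1.34 FPKM in the same order. In limma neither passed in any comparison on either scale (0 at an unadjusted p under 0.05 on the deposited scale). Against untreated cells the differences in PLG+EACA were -0.14 for Fau (limma adjusted p = 0.0842) and -0.11 for Rack1 (adjusted p = 0.145) on the deposited scale, and 0.15 and 0.17 after median-of-ratios scaling.

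The mRNAs of the factors that make and use ribosomes were counted beside the family. Their counts stand beside the shares of all tested genes given above: on the deposited scale 14.9% rose and 53.4% fell in PLG+EACA, and 16.0% rose and 48.4% fell in PLG+EACA+RNase, both against untreated cells. Under median-of-ratios scaling these shares were 27.8% and 25.2%, and 25.0% and 30.2%. Of 20 other TOP mRNAs and elongation genes, none rose and 8 fell in PLG+EACA against untreated cells (0 risen at an unadjusted p under 0.05 in limma), and 2 rose and 4 fell in PLG+EACA+RNase. After median-of-ratios scaling 13 rose and 2 fell, and 10 rose and 2 fell. Their medians in PLG+EACA against untreated cells were -0.10 and 0.19 under the deposited and the median-of-ratios scaling, where the members had -0.09 and 0.20. Eif3l, an initiation factor subunit with a TOP mRNA, fell to 23.4 ± 0.891 FPKM in PLG+EACA+RNase and 23.0 ± 0.726 in PLG+EACA, against 29.5 ± 0.329 in untreated cells (limma adjusted p = 2.23e-05 and 1.14e-05); after scaling the first held (-0.14, adjusted p = 0.0151) and the second did not (-0.07, adjusted p = 0.218). Of 22 initiation factors, 2 rose and 12 fell in PLG+EACA and 4 rose and 12 fell in PLG+EACA+RNase, becoming 9 and 2, and 8 and 2, after scaling. The share of initiation factors that fell on the deposited scale was near the 53.4% and 48.4% of all genes. The exchange factor subunit Eif2b1 averaged 4.72 ± 0.350 FPKM in PLG+EACA+RNase, 5.20 ± 0.462 in PLG+EACA and 8.59 ± 0.385 in untreated cells (adjusted p = 1.5e-06 and 4.51e-06), and fell under both scalings.

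Most genes for ribosome assembly fell on the deposited scale, where 53.4% and 48.4% of all genes also fell in PLG+EACA and PLG+EACA+RNase. Of 33 biogenesis genes, 3 rose and 26 fell in PLG+EACA and 3 rose and 21 fell in PLG+EACA+RNase against untreated cells, with 5 and 15, and 6 and 14, after median-of-ratios scaling, where 25.2% and 30.2% of all genes fell. Their medians on the deposited scale were -0.43 and -0.33, below the median gene, where the ribosomal protein genes lay above it; the difference between the lists was not tested. Rrp12, an assembly and export factor, fell to 2.64 ± 0.0963 FPKM in PLG+EACA+RNase and 2.61 ± 0.143 in PLG+EACA, against 4.61 ± 0.208 in untreated cells (limma adjusted p = 8.64e-07 and 6.47e-07). Bysl, a 40S assembly factor, fell to 3.21 ± 0.0700 and 2.99 ± 0.366 FPKM, against 5.85 ± 0.181. Sbds, which helps release Eif6 from the 60S subunit, rose to 107 ± 7.13 FPKM in PLG+EACA+RNase and 111 ± 6.54 in PLG+EACA, against 60.4 ± 4.65 in untreated cells (adjusted p = 1.11e-06 and 6.89e-07). These 3 kept their direction and call after scaling.

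RNA polymerase I makes the precursor of the large rRNAs. Of 15 genes for the enzyme and its factors, none rose (0 at an unadjusted p under 0.05 in limma) and 10 fell in PLG+EACA, and 1 rose and 10 fell in PLG+EACA+RNase, against falls of 53.4% and 48.4% of all genes. Its largest subunit gene, Polr1a, fell to 1.42 ± 0.114 FPKM in PLG+EACA+RNase and 1.54 ± 0.0954 in PLG+EACA, against 3.63 ± 0.0841 in untreated cells (adjusted p = 1.29e-07 and 2.06e-07). Ubtf, which opens rRNA genes, fell to 10.1 ± 0.646 and 11.1 ± 0.901 FPKM, against 17.5 ± 0.369. Both also fell after median-of-ratios scaling, where 2 genes rose and 5 fell in PLG+EACA and 2 rose and 7 fell in PLG+EACA+RNase, against falls of 25.2% and 30.2% of all genes.

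Of 22 tested genes in mTOR signalling and TOP mRNA control, 4 rose and 12 fell in PLG+EACA and 6 rose and 9 fell in PLG+EACA+RNase, becoming 7 and 7, and 8 and 8, after scaling. The falls on the deposited scale were near or below the 53.4% and 48.4% of all genes. Eif4ebp2, a translation repressor that mTOR inactivates, fell to 9.79 ± 0.716 FPKM in PLG+EACA+RNase and 9.25 ± 0.513 in PLG+EACA, against 18.6 ± 0.458 in untreated cells (limma adjusted p = 2.78e-07 and 1.48e-07). Tsc2, an upstream brake on mTOR, fell to 8.95 ± 0.236 and 8.74 ± 0.403 FPKM, against 12.9 ± 0.237. Between the treatments 5 rose and 1 fell. Akt1s1, an mTOR complex subunit, was higher in PLG+EACA+RNase at 27.8 ± 2.14 FPKM, against 18.9 ± 3.29 in PLG+EACA (adjusted p = 0.00802).

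Of 11 tested genes for import and chaperoning of ribosomal proteins and their link to p53, 2 rose and 7 fell in PLG+EACA and 2 rose and 5 fell in PLG+EACA+RNase, against falls of 53.4% and 48.4% of all genes. After median-of-ratios scaling 3 rose and 4 fell, and 3 rose and 5 fell. Mdm2, the p53 inhibitor to which some free ribosomal proteins bind, rose to 125 ± 7.54 FPKM in PLG+EACA+RNase and 120 ± 8.54 in PLG+EACA, against 60.2 ± 1.2 in untreated cells (limma adjusted p = 8.75e-08 and 1.31e-07). Cdkn1a, a p53 target that arrests the cell cycle, had 264 ± 39.0 FPKM in PLG+EACA+RNase, 352 ± 26.4 in PLG+EACA and 186 ± 11.7 in untreated cells. It fell by 0.42 between the treatments (adjusted p = 0.0120). The importin Kpnb1 fell to 26.1 ± 2.11 and 24.8 ± 1.74 FPKM, against 38.0 ± 0.861. The calls of Mdm2, Cdkn1a and Kpnb1 given here held after median-of-ratios scaling.

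Most mitochondrial ribosomal protein genes fell against untreated cells on the deposited scale, where 53.4% and 48.4% of all genes also fell in PLG+EACA and PLG+EACA+RNase. Of 74 tested, none rose and 58 fell in PLG+EACA, and none rose and 58 fell in PLG+EACA+RNase (0 and 1 risen at an unadjusted p under 0.05 in limma). After median-of-ratios scaling 4 rose and 26 fell, and 4 rose and 39 fell, against falls of 25.2% and 30.2% of all genes. The medians were -0.37 and -0.40 on the deposited scale, below those of the cytosolic members, with no test of the difference. Mrpl12, of the large mitochondrial subunit, averaged 11.6 ± 1.26 FPKM in PLG+EACA+RNase, 9.97 ± 0.555 in PLG+EACA and 20.1 ± 0.570 in untreated cells (adjusted p = 2.4e-06 and 4.2e-07). Of 11 mRNAs of the mitochondrial genome none rose and 11 fell in PLG+EACA+RNase and 6 fell in PLG+EACA, against untreated cells (0 risen at an unadjusted p under 0.05 in both), and after scaling 10 and 0 fell. Their summed share of reads was 0.40% to 0.48% in PLG+EACA+RNase, 0.49% to 0.65% in PLG+EACA and 0.62% to 0.71% in untreated libraries; its part in the results on the ribosomal protein genes was not tested.

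Between PLG+EACA+RNase and PLG+EACA cells, 12.1% of all tested genes rose and 8.73% fell on the deposited scale, and 7.77% rose and 17.3% fell under median-of-ratios scaling. By limma on the deposited scale, none of the 20 other TOP and elongation genes passed (5 higher and 0 lower at an unadjusted p under 0.05), 1 of 22 initiation factors fell, 2 of 33 biogenesis genes rose and 2 fell, and 1 of 15 polymerase I genes rose. Of the 22 mTOR genes 5 rose and 1 fell, 1 of the 11 import and p53 genes fell, and none of the 74 mitochondrial ribosomal protein genes passed (5 higher and 5 lower at an unadjusted p under 0.05). Of the 11 mitochondrial mRNAs 6 fell, with a median log2 fold change of -0.53. After scaling, 1 TOP or elongation gene, 6 initiation factors, 1 polymerase I gene, 2 import and p53 genes, 7 mitochondrial ribosomal protein genes and 8 mitochondrial mRNAs fell, and none of these lists had a rise. The biogenesis genes then had 1 rise and 3 falls, and the mTOR genes 3 and 3.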

How the data were processed

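Total RNA of 12 libraries, 4 in each of 3 groups, was read from 1 deposited table. The authors deposited FPKM with 3 decimals, with no scaling between libraries: FPKM times gene length summed to the same total in each. Gene lengths and coordinates (GRCm38.p6) stand in the same table and were identical to GENCODE M21 for all 90 members. Tools listed in the submitters' processing notes, with no role given, are STAR 2.7.11a, featureCounts 2.0.6, DESeq2 1.40.2, cutadapt 4.5 and FastQC 0.12.1. Strand use and the handling of reads that match several genes are not given in the sources used here. Libraries were directional, per the labels' protocols.

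Depth, recovered from the steps of FPKM (all values checked lay within 0.1 read of a whole number), was 12940887 to 22677046 reads. Genes with FPKM of at least 1 in at least 4 libraries were tested on log2(FPKM + 0.5), which understates the fold of low genes, in 1 limma fit of the 12 libraries (limma 3.58.1, R 4.3.3, eBayes with trend). Tests were two-sided, and Benjamini-Hochberg adjustment ran over all 11165 genes, with a threshold of 0.05. The fit was tested on simulated data. Alternatives were median-of-ratios, TPM and family-median scaling, Gm26917 left out, other pseudocounts and filters, 2 groups only, a replicate block, and each library left out.

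Named were the 5 highest and 3 lowest tested members, the 4 furthest above and below the median member in each comparison, the stalk, the paralog-like genes, Rps19bp1, Fau and Rack1, and from other lists genes among the 3 smallest p. Some genes that this rule names, and the alternative that adds genes outside the name rule to the family, are not reported here. Members and lists were chosen with earlier results of these data known. Promoters came from RefSeq (GRCm38.p6), where 65 members matched. Shared sequence was counted as 50-base stretches in GENCODE M21 transcripts.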

Additional observations from a re-analysis of the deposited data

Results flagged for a closer look

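Within groups of 4 libraries, 3 values of named members stood apart from the other 3 libraries by more than Dixon's critical value for 4 samples, out of 78 groups examined, where chance flags about 1 in 20. Rplp1 had its lowest untreated value in replicate 4, at 824.6 FPKM. Rpl23a had its lowest untreated value in the same library, at 48.43 FPKM. Rpl7l1 had its lowest PLG+EACA value in replicate 4, at 13.29 FPKM. Untreated replicate 4 gave the lowest value of its group for 46 of 83 members.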

How the results depend on the processing

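Counts are given as members called higher and lower. For PLG+EACA against untreated cells, 1 and 22 became 42 and 2 under median-of-ratios scaling, 3 and 10 under family-median scaling, 2 higher with an FPKM of at least 5 or with only the 2 groups, and 11 or 9 lower without Gm26917 or without a filter. For PLG+EACA+RNase against untreated cells, 4 and 10 became 33 and 2 under median-of-ratios scaling, 2 higher under TPM scaling, 1 and 5 without a filter, 4 lower under family-median scaling and 5 lower without Gm26917. For PLG+EACA+RNase against PLG+EACA, 4 and 1 became 0 and 2 under median-of-ratios scaling, 2 higher under TPM scaling, 0 higher without a filter, 0 and 0 with only the 2 groups, and 0 lower under family-median scaling or without Gm26917. The causes were not tested, and shares of all genes called are given above only for the 5 scalings. Counts under the other alternatives therefore show nothing particular to the members. Leaving out 1 library gave 0 to 2 and 9 to 29, 1 to 5 and 5 to 23, and 0 to 10 and 0 to 1 in the same order. Family shares without 1 library were 1.769% to 1.848% in PLG+EACA+RNase, 1.682% to 1.759% in PLG+EACA and 1.823% to 1.836% in untreated cells, and without Gm26917 2.11%, 1.973% and 2.055%. Whether replicate numbers pair the samples is not known. Deviations from group means correlated at -0.176 to 0.332 between libraries of the same number. Without differently numbered pairs beside them, these values cannot decide it. With a replicate block the counts were 2 and 16, 4 and 10, and 5 and 0. Under median-of-ratios scaling these members turned positive in PLG+EACA against untreated cells: Rpl41 (0.25), Rplp0 (0.21), Rplp1 (0.13), Rplp2 (0.20), Rps2 (0.20), Rps3a1 (0.21) and Rpsa (0.13). Over the named members' fold changes, 1106 values under alternatives kept direction and call, 29 gained a call, 97 lost it and 7 reversed. Depth limits the genes with a few reads, such as Rps27rt.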
